A study of Homo sapiens with 36 samples.

Results

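The genes described here are factors of ribosome biogenesis: 40 genes listed by name, made up of nucleolar processing and assembly factors, 4 subunits of RNA polymerase I, and MYC. Of these, 35 had a probe set that the platform annotation assigns to that gene alone, among 19775 genes so represented on the array. NOP56, DKC1, BOP1, GNL3 and DDX18 had none and are not analysed here. Where a gene had several probe sets, the brightest on average across the 36 arrays stood for it. All 35 genes exceeded a log2 value of 4 on at least 3 arrays of each compound and were tested.

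RNA came from HK-2, an immortalised line of human proximal tubule epithelium grown in a hormone- and growth-factor-supplemented medium. The 36 single-colour arrays fall into 12 groups of 3 biological replicates. Cultures were exposed to Aa, the name the labels give one compound, over 24 h or 48 h, or to a second one named Ota over 24 h or 72 h, in each case at none (vehicle), low or high dose, with separate vehicle cultures for every compound and duration. The labels give neither concentrations nor the vehicle, so the doses of Aa and Ota cannot be matched, and 24 h is the only shared time.

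Ribosomes are built in the nucleolus. RNA polymerase I transcribes the long precursor of the rRNAs, small nucleolar ribonucleoproteins (snoRNPs) guide its chemical modification and early cleavage, and separate sets of factors assemble and export the small and the large subunit. MYC binds and activates many of the genes involved, often through the E-box CACGTG near their transcription start. Production of ribosomes is one of the costliest activities of a growing epithelial cell, and it is curtailed when DNA, transcription or nutrients fail.

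Promoter windows of 300 bases, 250 before to 50 after the start, were available for 31 of the 40 genes (RefSeq, build GRCh38.p14). The E-box, searched as the letters CACGTG, which read the same on both strands, occurred in 11 of them (35.5%), against 7.43% of all 27305 promoters and 10.6% of the promoters of 9409 tested genes. In the 11 genes it lay between position -16 and position 36 relative to the start. All 11 boxes lay within 50 bases of the start, as did the box of 414 of the 997 tested genes that had one (41.5%), a window chosen after the positions were seen. The 11 genes were GNL2, WDR43, RRP9, NOP14, BYSL, LTV1, NOP2, UTP20, UTP4, FBL and PES1. A match is a description of the sequence and says nothing of binding. Below, capitals mark the E-box in 4 promoters, shown because NOP2 had the largest Aa rise, UTP4 was higher with Ota at both times, and BYSL and PES1 were lower at 24 h and higher at 72 h of Ota. All are written 5′ to 3′ on the strand of the gene.
NOP2, minus strand, chr12:6568242-6568541: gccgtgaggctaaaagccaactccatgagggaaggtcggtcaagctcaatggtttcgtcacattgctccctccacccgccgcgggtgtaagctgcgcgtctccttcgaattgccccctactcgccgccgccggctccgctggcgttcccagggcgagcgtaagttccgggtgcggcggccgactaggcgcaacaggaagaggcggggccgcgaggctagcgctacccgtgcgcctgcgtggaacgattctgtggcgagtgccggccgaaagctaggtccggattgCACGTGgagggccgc
UTP4, plus strand, chr16:69132399-69132698: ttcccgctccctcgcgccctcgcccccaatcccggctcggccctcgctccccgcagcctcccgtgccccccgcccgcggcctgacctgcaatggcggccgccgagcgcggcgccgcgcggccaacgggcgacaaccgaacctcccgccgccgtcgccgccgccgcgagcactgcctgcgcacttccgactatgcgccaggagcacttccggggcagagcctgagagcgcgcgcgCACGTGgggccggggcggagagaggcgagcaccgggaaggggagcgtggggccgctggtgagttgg
BYSL, plus strand, chr6:41921249-41921548: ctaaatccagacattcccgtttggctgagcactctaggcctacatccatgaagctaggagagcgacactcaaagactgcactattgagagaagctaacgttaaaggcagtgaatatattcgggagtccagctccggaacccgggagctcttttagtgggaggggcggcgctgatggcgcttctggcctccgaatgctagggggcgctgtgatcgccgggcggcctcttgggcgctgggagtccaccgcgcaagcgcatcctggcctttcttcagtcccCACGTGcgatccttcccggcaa
PES1, minus strand, chr22:30591861-30592160: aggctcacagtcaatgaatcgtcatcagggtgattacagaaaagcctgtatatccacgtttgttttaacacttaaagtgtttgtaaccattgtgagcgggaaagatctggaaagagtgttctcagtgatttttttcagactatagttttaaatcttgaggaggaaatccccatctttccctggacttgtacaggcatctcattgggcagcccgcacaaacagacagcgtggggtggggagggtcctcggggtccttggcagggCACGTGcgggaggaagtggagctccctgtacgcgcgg

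LYAR, higher in every high dose comparison, and NOB1, with the deepest fall between measured levels, have no CACGTG in the window and are printed for contrast.
LYAR, minus strand, chr4:4290105-4290404: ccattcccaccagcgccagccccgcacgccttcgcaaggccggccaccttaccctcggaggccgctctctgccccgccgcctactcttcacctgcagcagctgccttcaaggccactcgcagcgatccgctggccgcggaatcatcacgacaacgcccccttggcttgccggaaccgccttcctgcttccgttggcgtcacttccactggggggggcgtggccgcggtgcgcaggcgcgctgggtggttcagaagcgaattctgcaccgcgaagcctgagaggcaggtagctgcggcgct
NOB1, minus strand, chr16:69754877-69755176: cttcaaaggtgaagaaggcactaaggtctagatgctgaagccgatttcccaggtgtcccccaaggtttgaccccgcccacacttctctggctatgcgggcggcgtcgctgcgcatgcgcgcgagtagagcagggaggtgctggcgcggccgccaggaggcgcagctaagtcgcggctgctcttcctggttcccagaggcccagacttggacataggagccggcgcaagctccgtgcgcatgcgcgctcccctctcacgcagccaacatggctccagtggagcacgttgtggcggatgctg

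Arrays had 10055 to 10557 genes above 4, and replicates correlated at 0.9775 to 0.9978. The arrays of high dose Ota stood apart before any test: across tested genes the median was 7.51 ± 0.17 at 24 h, against 8.18 ± 0.05 in controls, and 7.83 ± 0.05 at 72 h, against 8.17 ± 0.02 (SD, n = 3). The 3' minus 5' difference of the actin probe sets, which tracks RNA quality, was 1.88 ± 0.37 at 72 h of high dose Ota and 1.29 ± 0.15 in its controls. At 48 h of high dose Aa it was 1.25 ± 0.30, against 0.86 ± 0.22, and higher than in the same-numbered control in all 3 pairs. Of 11 proximal tubule markers with a probe set, KRT8, KRT18, KRT19, DPP4 and PAX8 were above 4 on every control array, while ANPEP, AQP1, LRP2, CUBN and SLC34A1 were at or under 4 on all 36. The summed linear signal of those 11 markers was 8732 to 15419 in high dose Ota at 24 h, against 16699 to 21591 in controls, and 10704 to 16890 at 72 h, against 18499 to 19629. With high dose Aa it was 15417 to 18201 at 24 h, against 23102 to 24436, and 17645 to 20481 at 48 h, against 17352 to 23563, which overlap. The sum of 5 leukocyte markers with high dose Ota at 24 h was 125 to 165, against 28.3 to 28.8, and 108 to 166 at 72 h, against 27.0 to 30.8. With high dose Aa at 48 h it was 40.8 to 64.0, against 27.9 to 29.96, with PTPRC, CD3E and LYZ at or under 4 on all 36 arrays. The 6 distal nephron markers summed to 935 to 1095 in high dose Aa at 48 h, against 1110 to 1884, and to 792 to 944 in high dose Ota at 72 h, against 1719 to 2483. In the same Ota arrays the 5 fibroblast markers summed to 1247 to 1978, against 744 to 950, and the 5 endothelial markers, 4 of them at or under 4 on every array, to 48.9 to 66.5, against 140 to 171. The fibroblast sum was 1608 to 2405 with low dose Ota at 72 h and 2536 to 3187 in Ota controls at 24 h. The part of these differences in the results below was not tested.

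**Figure D1:**
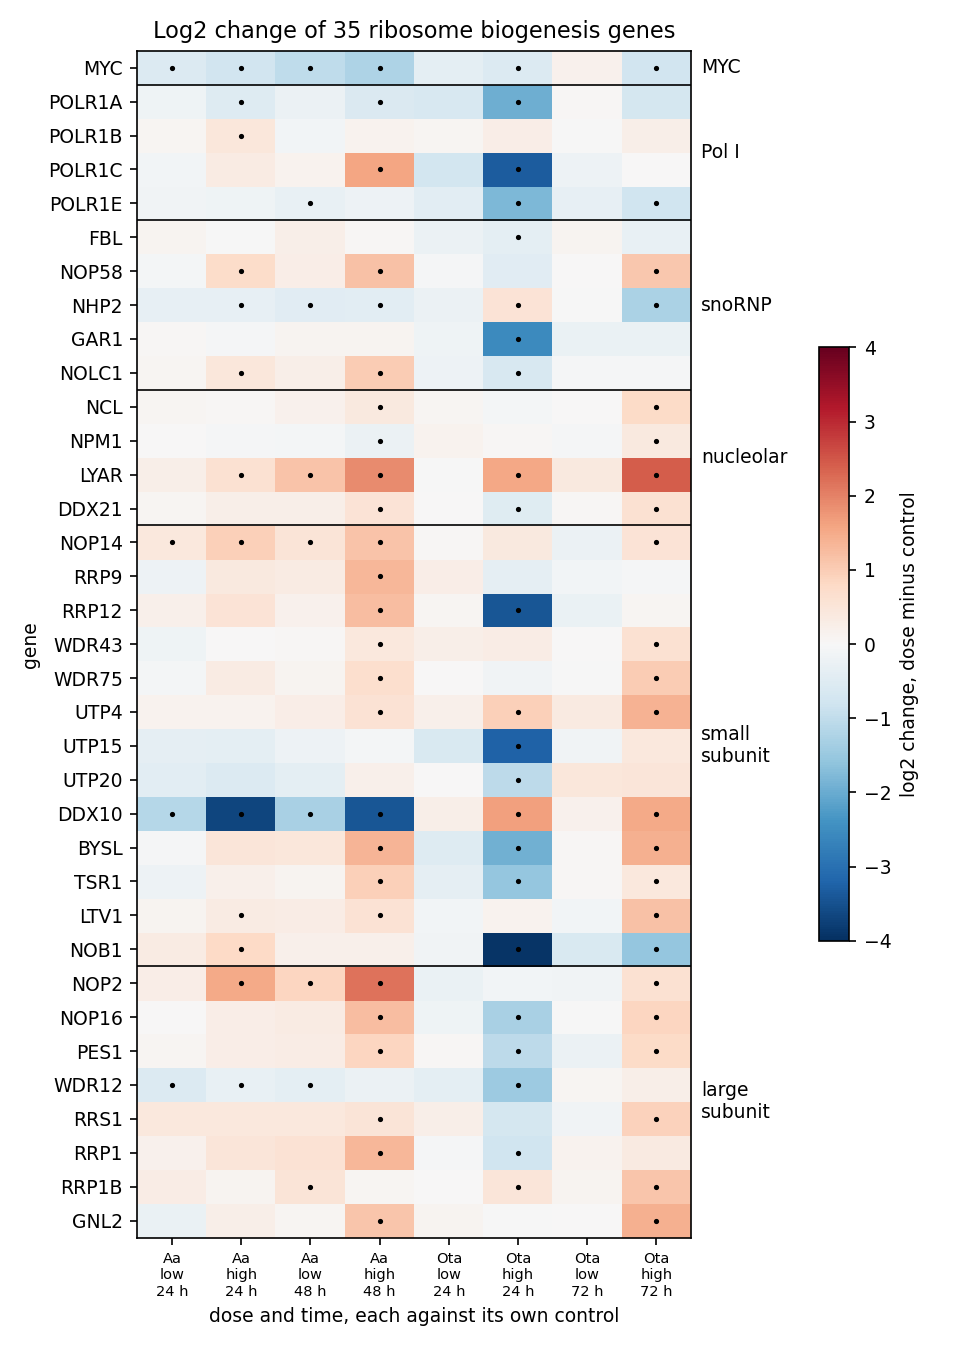
Log2 change of each of the 35 genes (rows, grouped by role) for each dose and time against its own control (columns); red is higher and blue lower with the dose, and a dot marks an adjusted p under 0.05. Aa at 48 h and Ota at 72 h are mostly red, with 21 and 19 genes higher, Ota at 24 h is mostly blue, with 18 lower (12 with arrays shifted to a common median), and the Ota low dose columns carry no dot.

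Most biogenesis genes that passed the test were higher at the later time of each compound, and most were lower with Ota at 24 h, a direction that depended on scaling. With high dose Aa, 13 of the 35 passed the test at 24 h (8 higher, 5 lower), when 51.3% of all tested genes did (27.4% higher, 24.0% lower), and 26 at 48 h (21 higher, 5 lower), when 66.0% did. With high dose Ota, 23 passed at 24 h, 5 upward and 18 downward, when 64.0% of all tested genes did, and 23 passed at 72 h, 19 upward and 4 downward, when 63.4% did. With so many genes changed everywhere, the counts are read by direction beside the background. At the later times 30.9% of all tested genes were higher with Aa at 48 h and 26.3% with Ota at 72 h, below the shares of the 35. In this fit, without a replicate block, the counts at 24 h lay nearer the background of each compound. With Ota 42.4% of all tested genes were lower and 21.6% higher. The median log2 change over the 35 genes was 0.23 for Aa at 24 h, 0.53 for Aa at 48 h, -0.48 for Ota at 24 h and 0.49 for Ota at 72 h, beside 0.03, -0.04, -0.26 and -0.12 over all tested genes. On bulk RNA, fewer cells that express a gene and less of its RNA per cell cannot be told apart.

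The array numbers paired Aa cultures across groups, so the replicate number was also fitted as a block. With it 24 genes passed with high dose Aa at 24 h (18 higher, 6 lower), when 63.2% of all tested genes did (33.3% higher, 29.9% lower). At 48 h the block gave 28 (21 higher, 7 lower), when 74.4% did (35.4% higher, 39.0% lower). The split with Ota at 24 h depended on scaling: with each array shifted to a common median, 14 genes were higher and 12 lower, and with quantile normalization 10 were higher and 16 lower. Those settings moved the median of all tested genes by 0.64 and 0.40 on the log2 scale. At 72 h the shifted arrays gave 25 higher and 4 lower. The shares of all tested genes higher and lower under these settings are not given here, so these splits cannot be set beside a background. Every one of the 35 genes passed the test in at least 1 of the 4 high dose comparisons, as did 94.9% of the 10649 genes tested with both compounds, so that this count does not set them apart. Of the 35, 14 were called higher only, 8 lower only and 13 in both directions. Of all those 10649 genes, 26.3% were called higher only, 39.97% lower only and 28.6% in both directions.

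**Figure D2:**
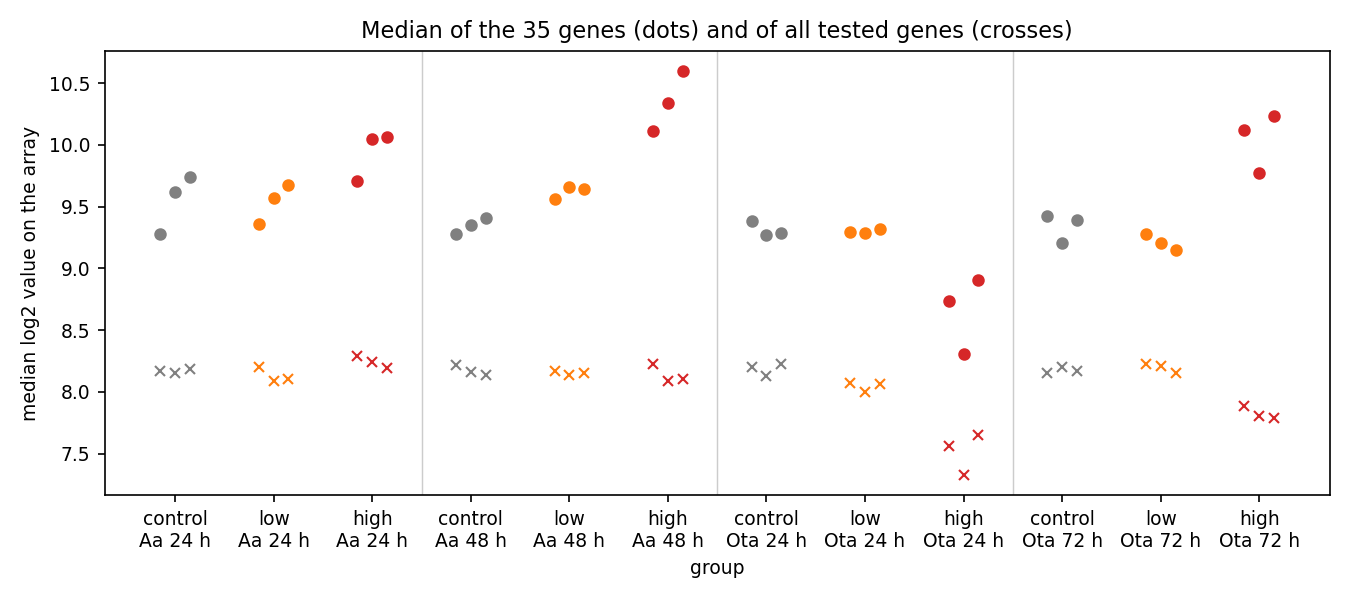
Median log2 value of the 35 genes (dots) and of all tested genes (crosses) on each of the 36 arrays, by group, with control in grey, low dose in orange and high dose in red. The dots of high dose Aa at 48 h and high dose Ota at 72 h lie above those of their controls while the crosses do not, and at 24 h of high dose Ota both lie below.

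The level of the set on each array followed the same course. The median over the 35 genes was 10.35 ± 0.24 in high dose Aa at 48 h, against 9.35 ± 0.06 in controls, and 10.04 ± 0.24 in high dose Ota at 72 h, against 9.34 ± 0.12. At 24 h of high dose Ota it was 8.65 ± 0.31, against 9.31 ± 0.06 in controls (SD, n = 3 arrays). Relative to the median of all tested genes on the same array, the set stood at 1.14 ± 0.14 in high dose Ota at 24 h and 1.13 ± 0.06 in its controls, so that on this measure the 24 h groups overlapped. At 72 h it stood at 2.21 ± 0.24, against 1.17 ± 0.14 in controls.

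MYC, a transcription factor known to activate many biogenesis genes, was lower in the 4 high dose comparisons, but with shifted arrays the Ota change at 24 h turned positive. LYAR, a nucleolar zinc finger protein of rRNA processing, was higher in the same 4 comparisons. Control of these genes by MYC was not tested. With Aa, MYC read 11.51, 11.23 and 11.36 on the high dose arrays at 24 h, against 12.35, 12.03 and 12.01 on control arrays, a log2 change of -0.77 ± 0.14 (SE, adjusted p = 0.00026). At 48 h it read 11.25, 11.00 and 11.35, against 12.68, 12.34 and 12.32, a change of -1.24 ± 0.14 (adjusted p = 1.5e-06). No high dose array overlapped a control array at either time. Such separation was common over all tested genes. With high dose Aa at 24 h, 30.7% lay wholly above their controls and 28.4% wholly below, and at 48 h 32.6% and 36.4%. With high dose Ota the shares above and below were 23% and 42% at 24 h, and 30.8% and 41% at 72 h. The low dose also lowered MYC, by 0.55 ± 0.14 at 24 h and by 1.00 ± 0.14 at 48 h, to 11.45, 11.43 and 11.45 at the later time. With Ota, MYC read 11.10, 11.09 and 11.28 with the high dose at 24 h, against 11.84, 11.65 and 11.59 in controls, a change of -0.54 ± 0.17 that became 0.10 with shifted arrays. At 72 h it read 11.16, 10.95 and 11.38, against 12.24, 11.69 and 11.86, a change of -0.76 ± 0.17 (adjusted p = 0.00092).

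**Figure D3:**
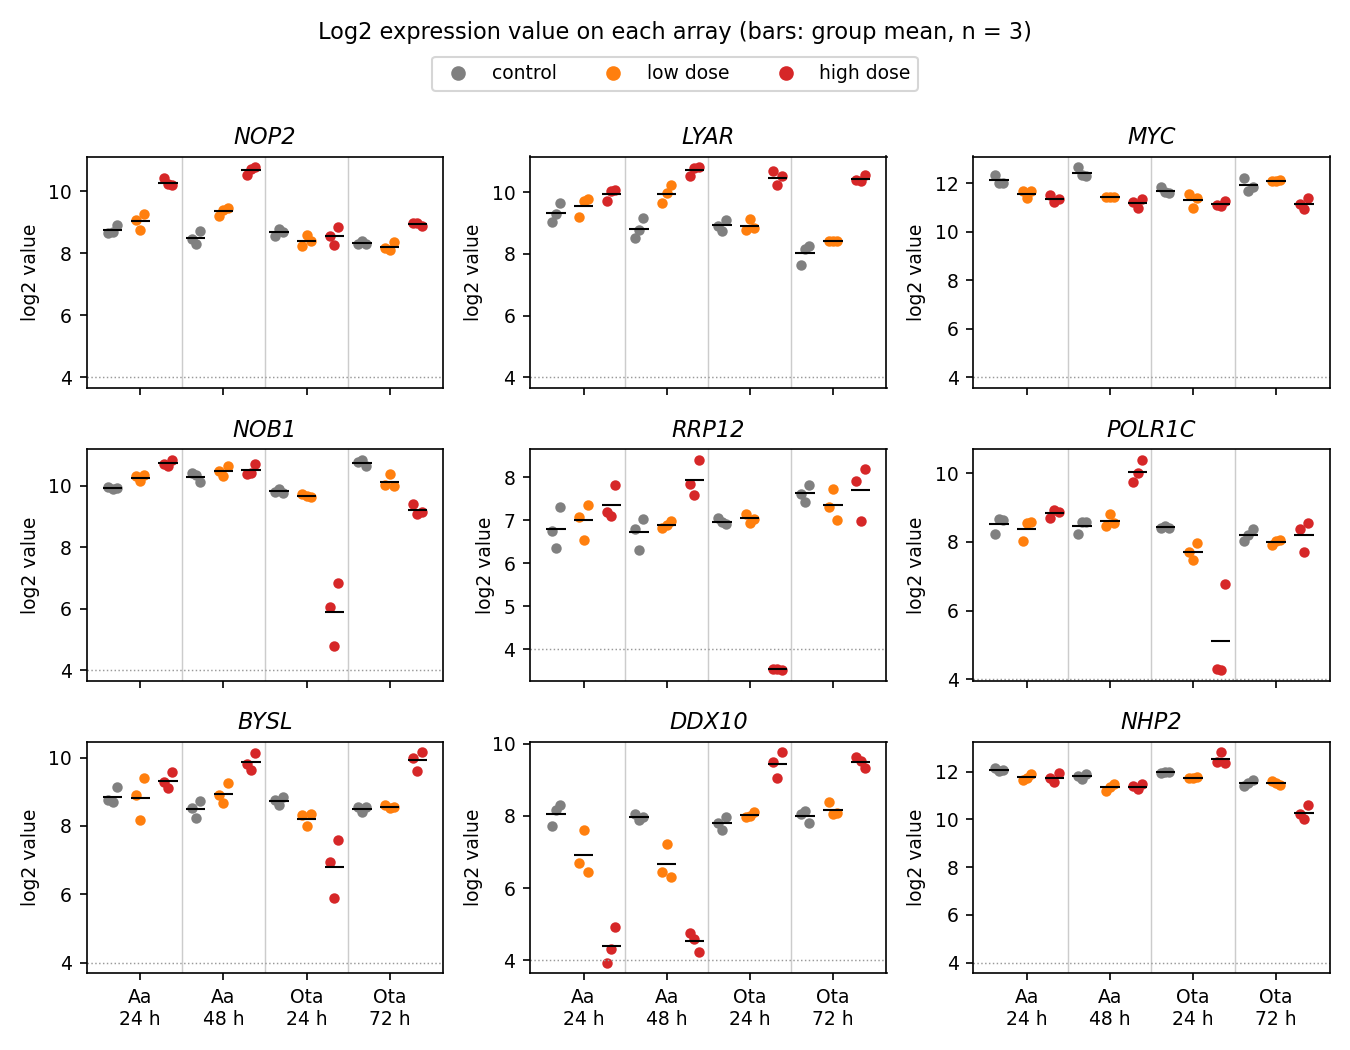
Log2 value of 9 of the genes on each array (points) with the mean of each group of 3 arrays (black bars), for control, low and high dose at each compound and time; the dotted line marks 4, below which levels have no dependable order. NOP2 stands highest in high dose Aa and LYAR in high dose Aa at 48 h, NOB1, RRP12, POLR1C and BYSL drop in high dose Ota at 24 h, and DDX10 falls with Aa and rises with Ota.

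LYAR had the largest rise of the set with Ota at 72 h. Its high dose arrays read 10.68, 10.22 and 10.52 at 24 h, against 8.91, 8.75 and 9.10 in controls, a change of 1.55 ± 0.17 (adjusted p = 9.9e-07). At 72 h they read 10.38, 10.37 and 10.56, against 7.63, 8.15 and 8.27, a change of 2.42 ± 0.17 (adjusted p = 9.6e-09). The high dose level was thus nearly the same at both times, and the controls were 0.90 ± 0.17 lower at 72 h than at 24 h. With Aa at 48 h LYAR rose along the dose series, from control arrays of 8.52, 8.77 and 9.17 through low dose arrays of 9.63, 9.98 and 10.24 to high dose arrays of 10.54, 10.78 and 10.81, without overlap between doses. The high dose change there was 1.89 ± 0.21 (adjusted p = 1.7e-06). At 24 h of Aa it was 0.62 ± 0.21, a call lost on leaving out control 1 or 2 or high dose array 2 or 3 (adjusted p = 0.0596 to 0.110) and with shifted arrays (0.0700).

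The subunits of RNA polymerase I, the enzyme that makes the rRNA precursor, passed as lower with Ota at 24 h in 3 of 4 cases, when 42.4% of all tested genes were lower. POLR1C, a subunit shared with RNA polymerase III, read 4.29, 4.26 and 6.76 on the high dose arrays, against 8.41, 8.48 and 8.41 in controls, a change of -3.33 ± 0.46 (adjusted p = 1.2e-05). One treated array lay well above the other two, yet all 3 stayed below the controls. POLR1A, the largest subunit, read 4.46, 4.46 and 4.93, against 7.08, 6.59 and 6.07, a change of -1.97 ± 0.31 (adjusted p = 5.3e-05). POLR1E, a peripheral subunit, read 6.13, 6.75 and 6.13, against 8.15, 8.15 and 8.14, a change of -1.81 ± 0.16 (adjusted p = 9.2e-08). POLR1B, the second largest subunit, was the only one that did not pass (0.25 ± 0.19, adjusted p = 0.25). At 72 h of Ota only POLR1E passed, with 7.97, 7.62 and 7.88 against 8.48, 8.74 and 8.64, a change of -0.80 ± 0.16 (adjusted p = 0.00041) that shrank to -0.16 in the mean of all its probe sets, where the call was lost (adjusted p = 0.166).

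With Aa the polymerase subunits went different ways. POLR1C rose at 48 h, to 9.75, 10.01 and 10.40 on high dose arrays, against 8.24, 8.59 and 8.58 in controls, a change of 1.58 ± 0.19 (adjusted p = 3.5e-06), and the low dose arrays lay with the controls. POLR1B rose at 24 h, to 9.52, 9.79 and 9.50, against 9.17, 9.13 and 9.19, a change of 0.44 ± 0.11 (adjusted p = 0.0038). POLR1A was lower at both times, by 0.52 ± 0.19 and 0.59 ± 0.19 on the log2 scale. For POLR1A this direction belongs to the probe set used: another of its sets was higher by 2.37 ± 0.28 at 24 h and 2.25 ± 0.28 at 48 h. Its treated and control arrays overlapped at 24 h. The POLR1A call at 24 h was lost on leaving out control 1 or 3 or high dose array 2 or 3 (adjusted p = 0.0693 to 0.153), and that at 48 h without high dose replicate 1 (0.0665). The call was also lost with all 36 arrays in 1 fit, at 24 h (0.115) and at 48 h (0.0597), with no filter at 24 h (0.0586) and with quantile normalization at 48 h (0.0905).

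The snoRNP proteins, which carry out and guide rRNA modification, divided by compound and time. With Aa, NOP58, a core protein of the box C/D particles that methylate rRNA, read 11.90, 11.86 and 12.05 with the high dose at 24 h, against 11.02, 11.13 and 11.44 in controls, a change of 0.74 ± 0.12 (adjusted p = 9.3e-05). At 48 h it read 12.09, 12.25 and 12.36, against 11.07, 10.91 and 11.19, a change of 1.18 ± 0.12 (adjusted p = 5.4e-07), with no overlap at either time. NOLC1, a chaperone of snoRNPs, was higher by 0.45 ± 0.11 at 24 h, and at 48 h read 13.01, 13.15 and 13.32, against 12.19, 12.10 and 12.16, a change of 1.01 ± 0.11 (adjusted p = 1.1e-06). The mean of all NOLC1 probe sets at 24 h gave 0.06 and no call. NHP2, a core protein of the box H/ACA particles that make pseudouridine, moved down, by 0.34 ± 0.12 at 24 h and 0.44 ± 0.12 at 48 h (adjusted p = 0.026 and 0.0043). At 24 h its call was lost on leaving out control 1 or 3 or high dose array 1 or 2 (adjusted p = 0.0589 to 0.127).

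With Ota at 24 h, GAR1, another H/ACA core protein, had the deepest fall of this group: 7.99, 7.04 and 8.66 on high dose arrays, against 10.44, 10.35 and 10.53 in controls, a change of -2.54 ± 0.28 (adjusted p = 1.3e-06). NOLC1 fell by 0.64 ± 0.11 and FBL, the methyltransferase fibrillarin, by 0.40 ± 0.13, but with shifted arrays NOLC1 stood at -0.01, not called, and FBL at 0.24. FBL also lost its call without high dose replicate 3 (adjusted p = 0.0569). NOP58 was the only member of the group that did not pass at that time (-0.45 ± 0.20, adjusted p = 0.068). NHP2 went the other way: it read 12.43, 12.82 and 12.39 with the high dose, against 11.96, 12.00 and 12.01, a change of 0.55 ± 0.15 (adjusted p = 0.0040). At 72 h NHP2 read 10.24, 10.00 and 10.60, against 11.40, 11.55 and 11.65, a change of -1.25 ± 0.15 (adjusted p = 2.6e-06), so its treated arrays lay wholly above the controls at 24 h and wholly below them at 72 h. NOP58 rose at 72 h, to 12.58, 12.35 and 12.41, against 11.43, 11.27 and 11.41, a change of 1.08 ± 0.20 (adjusted p = 0.00026).

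Among the abundant nucleolar proteins, all 4 genes with a probe set passed the test with Aa at 48 h and with Ota at 72 h, LYAR among them, when 66.0% and 63.4% of all tested genes did. NCL, nucleolin, which binds the rRNA precursor, read 13.05, 12.94 and 13.15 with high dose Aa at 48 h, against 12.68, 12.57 and 12.73 in controls, a change of 0.39 ± 0.10. With Ota at 72 h NCL read 13.52, 13.30 and 13.54, against 12.76, 12.61 and 12.75, a change of 0.75 ± 0.11 (adjusted p = 2.3e-05). Both NCL rises were small beside that of LYAR but kept the groups apart. DDX21, an RNA helicase of rRNA transcription and processing, was higher by 0.53 ± 0.11 with Aa at 48 h and by 0.61 ± 0.17 with Ota at 72 h. With Ota at 24 h DDX21 read 11.92, 11.41 and 12.25, against 12.35, 12.23 and 12.44, a change of -0.48 ± 0.17 that became 0.16 with shifted arrays and 0.02 in the mean of its probe sets. That call was lost on leaving out control 3 or high dose array 2 (adjusted p = 0.0629 and 0.0947), and another DDX21 set was called higher (0.51 ± 0.14). NPM1, nucleophosmin, a chaperone of pre-ribosomes, changed little and in opposite directions: -0.24 ± 0.09 with Aa at 48 h and 0.38 ± 0.11 with Ota at 72 h. The Aa call was lost on leaving out control 2 or high dose array 3 (adjusted p = 0.0886 to 0.0968) and with shifted arrays (0.0711) or quantile normalization (0.0616), and for the Ota change another NPM1 set fell by 0.45 ± 0.13.

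The small subunit factors gave both the deepest falls and the sharpest contrast between compounds. DDX10, a helicase known from yeast to release a snoRNA from the pre-ribosome, fell along the dose series of Aa. At 24 h its control arrays read 7.73, 8.17 and 8.29, its low dose arrays 6.69, 7.60 and 6.46 and its high dose arrays 3.94, 4.31 and 4.92. One high dose array lay under 4. The high dose change was -3.67 ± 0.31 (adjusted p = 2.7e-07) and the low dose change -1.14 ± 0.31 (adjusted p = 0.013), with no overlap between the 3 doses. The low dose call was lost without control replicate 3 or low dose replicate 1 or 3 (adjusted p = 0.0555 to 0.0699). At 48 h the changes were -3.43 ± 0.31 and -1.31 ± 0.31. With high dose Ota, DDX10 rose instead, to 9.50, 9.03 and 9.76 at 24 h, against 7.81, 7.59 and 7.96 in controls, a change of 1.64 ± 0.17 (adjusted p = 6.5e-07). At 72 h it read 9.64, 9.52 and 9.33, against 8.04, 8.14 and 7.80, a change of 1.51 ± 0.17 (adjusted p = 1.8e-06).

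With Ota at 24 h, NOB1, the nuclease that makes the final cut of the small subunit rRNA, fell furthest of the genes that stayed above 4. Its high dose arrays read 6.04, 4.80 and 6.82, against 9.80, 9.91 and 9.76 in controls, a change of -3.94 ± 0.33 (adjusted p = 5.0e-08). At 72 h they read 9.41, 9.08 and 9.14, against 10.79, 10.86 and 10.64, a change of -1.55 ± 0.33 (adjusted p = 0.00064). NOB1 was thus lower at both times, without overlap. RRP12, a factor of small subunit maturation and export known from yeast, read 3.54, 3.54 and 3.52 on the high dose arrays at 24 h, against 7.04, 6.95 and 6.90. All 3 treated values lay at or under 4, so the fall was at least 7.80-fold (adjusted p = 8.7e-09). Another RRP12 set was called higher there by 0.79 ± 0.16. UTP15, a component of the complex that joins rRNA transcription to processing, read 4.22, 4.47 and 5.53, against 8.0, 7.81 and 8.14, a change of -3.24 ± 0.28 (adjusted p = 7.5e-08). UTP20, a scaffold of the small subunit processome, fell by 1.03 ± 0.30, but by 0.40 with shifted arrays and 0.04 with quantile normalization, where it was not called.

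BYSL and TSR1, assembly factors of the late small subunit, were lower with Ota at 24 h and higher at 72 h. BYSL, whose promoter with its E-box is printed above, read 6.94, 5.88 and 7.60 on high dose arrays at 24 h, against 8.75, 8.60 and 8.84 in controls, a change of -1.92 ± 0.29 (adjusted p = 3.0e-05). At 72 h it read 9.98, 9.61 and 10.15, against 8.55, 8.42 and 8.55, a change of 1.41 ± 0.29 (adjusted p = 0.00054). The treated BYSL arrays lay below every control at 24 h and above every control at 72 h. TSR1 changed by -1.53 ± 0.15 at 24 h (adjusted p = 2.4e-07) and by 0.42 ± 0.15 at 72 h (adjusted p = 0.020). The later TSR1 call was lost on leaving out control 2 or high dose array 1 or 3 (adjusted p = 0.0515 to 0.0917), and at 24 h 2 other TSR1 sets were called higher (0.97 ± 0.20 and 1.03 ± 0.17). UTP4, of the same complex as UTP15, was higher at both times: 11.69, 11.36 and 12.01 at 24 h, against 10.74, 10.64 and 10.85, a change of 0.95 ± 0.14, and 12.34, 12.25 and 12.14 at 72 h, against 10.91, 10.80 and 10.83, a change of 1.39 ± 0.14 (adjusted p = 3.7e-07).

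At 72 h of Ota the other small subunit genes that passed were all higher. LTV1, a factor of small subunit export, read 10.34, 9.95 and 10.30, against 9.05, 9.01 and 9.05 in controls, a change of 1.16 ± 0.18 (adjusted p = 3.7e-05). WDR75, a partner of UTP4 in the same complex, read 11.10, 10.85 and 10.98, against 9.77, 10.07 and 10.02, a change of 1.02 ± 0.22 (adjusted p = 0.00063). In both genes every treated array lay above every control, as in 30.8% of all tested genes. WDR43, from that complex too, rose by 0.61 ± 0.14 and NOP14, a processome protein, by 0.56 ± 0.21. The NOP14 call was lost without any one of the 3 control arrays or of high dose replicates 1 and 2 (adjusted p = 0.0506 to 0.0957) and without the filter (0.0540).

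With high dose Aa at 24 h, 3 small subunit genes rose, when 27.4% of all tested genes were higher, and DDX10 fell. NOP14 read 8.82, 8.60 and 8.74, against 7.74, 7.76 and 7.83 in controls, a change of 0.95 ± 0.11 (adjusted p = 8.5e-06), and the low dose arrays, at 8.26, 7.99 and 8.30, lay between. NOB1 read 10.71, 10.64 and 10.84, against 9.98, 9.91 and 9.93, a change of 0.79 ± 0.12 (adjusted p = 5.6e-05), which is the opposite of its direction with Ota. LTV1 rose by 0.34 ± 0.13, a call lost on leaving out control 1 or 2 or high dose array 2 or 3 (adjusted p = 0.0973 to 0.120) and with shifted arrays (0.145), quantile normalization (0.114), the mean of its probe sets (0.135) or all 36 arrays in 1 fit (0.0791). At 48 h, 9 small subunit genes rose, when 30.9% of all tested genes were higher. BYSL read 9.82, 9.64 and 10.14, against 8.53, 8.24 and 8.72, a change of 1.37 ± 0.26 (adjusted p = 0.00028). RRP9, a snoRNP protein of the processome, read 6.68, 6.93 and 7.19, against 5.93, 5.28 and 5.57, a change of 1.34 ± 0.25 (adjusted p = 0.00027). RRP12 read 7.83, 7.59 and 8.40, against 6.80, 6.32 and 7.04, a change of 1.22 ± 0.29. In these 3 genes every treated array lay above every control, as in 32.6% of all tested genes. NOP14 rose by 1.15 ± 0.11, TSR1 by 0.95 ± 0.18, WDR75 by 0.66 ± 0.15, LTV1 by 0.59 ± 0.13, UTP4 by 0.57 ± 0.12 and WDR43 by 0.43 ± 0.13, the last of which lost its call without high dose replicate 3 (adjusted p = 0.0560).

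Of the 8 large subunit factors, 6 passed at the later time of each compound, all of them higher, when 30.9% of all tested genes were higher with Aa at 48 h and 26.3% with Ota at 72 h. With the replicate block WDR12 also passed with Aa at 48 h, and it was lower (-0.23, adjusted p = 0.030). NOP2, a cytosine methyltransferase of the large subunit rRNA, had the largest rise with Aa. Its high dose arrays read 10.41, 10.21 and 10.20 at 24 h, against 8.65, 8.67 and 8.92 in controls, a change of 1.53 ± 0.14 (adjusted p = 8.5e-07). At 48 h they read 10.53, 10.71 and 10.77, against 8.45, 8.29 and 8.71, a change of 2.19 ± 0.14 (adjusted p = 1.4e-08). The low dose arrays at 48 h, at 9.18, 9.40 and 9.45, lay between the other groups without overlap (0.86 ± 0.14). With Ota, NOP2 passed only at 72 h, with 8.97, 8.97 and 8.88 against 8.30, 8.39 and 8.29, a change of 0.61 ± 0.14 (adjusted p = 0.0014).

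GNL2, a GTPase of large subunit export, read 10.64, 10.89 and 11.03 with high dose Aa at 48 h, against 9.48, 9.80 and 9.94 in controls, a change of 1.11 ± 0.17 (adjusted p = 3.4e-05). With high dose Ota at 72 h it read 11.60, 11.53 and 11.49, against 10.01, 10.29 and 10.08, a change of 1.42 ± 0.20 (adjusted p = 1.4e-05). GNL2 thus rose clear of its controls with both compounds, as did 32.6% of all tested genes with Aa at 48 h and 30.8% with Ota at 72 h. PES1, a core protein of the complex that processes the large subunit rRNA, and NOP16, an assembly factor, changed direction with time on Ota. PES1 read 8.04, 8.31 and 8.28 at 24 h, against 9.21, 9.27 and 9.28, a change of -1.04 ± 0.11 (adjusted p = 8.9e-07), and 10.12, 10.00 and 10.24 at 72 h, against 9.42, 9.21 and 9.39, a change of 0.78 ± 0.11 (adjusted p = 2.1e-05). NOP16 changed by -1.29 ± 0.23 at 24 h and by 0.85 ± 0.23 at 72 h. With Aa at 48 h PES1 rose by 0.87 ± 0.16 and NOP16 by 1.23 ± 0.19 (adjusted p = 0.00023 and 3.4e-05).

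RRP1 and its relative RRP1B, homologues of a yeast large subunit factor, did not move alike. RRP1 read 7.43, 7.49 and 7.99 with high dose Aa at 48 h, against 6.57, 5.99 and 6.35 in controls, a change of 1.34 ± 0.25 (adjusted p = 0.00029). With Ota at 24 h RRP1 fell by 0.80 ± 0.19, but quantile normalization gave 0.20, shifted arrays -0.16, and another set was called higher (0.43 ± 0.16). RRP1B rose with Ota, to 11.54, 11.11 and 11.76 at 24 h, against 11.15, 10.73 and 11.06, and to 11.79, 11.76 and 11.43 at 72 h, against 10.74, 10.58 and 10.37. Its arrays overlapped the controls at 24 h (0.49 ± 0.18) and not at 72 h (1.10 ± 0.18, adjusted p = 5.6e-05). The 24 h call of RRP1B was lost on leaving out control 2 or high dose array 1 or 3 (adjusted p = 0.0670 to 0.114).

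RRS1, an assembly factor of the large subunit, rose by 0.52 ± 0.18 with Aa at 48 h and by 0.92 ± 0.37 with Ota at 72 h (adjusted p = 0.019 and 0.039). On the Ota arrays at 72 h it read 11.15, 10.96 and 10.99, against 10.09, 9.99 and 10.26. The groups did not overlap, but the call was lost without any one of the 6 arrays (adjusted p = 0.0567 to 0.0973) and without the filter (0.0917), and the Aa call on leaving out control 2 or high dose array 3 (0.0578 and 0.0786) and with all 36 arrays in 1 fit (0.135). WDR12, the partner of PES1, moved down: by 0.30 ± 0.11 with high dose Aa at 24 h and by 1.45 ± 0.23 with Ota at 24 h, where it read 8.20, 7.61 and 8.90, against 9.50, 9.69 and 9.87. Other WDR12 probe sets went up in the same arrays, one by 1.04 ± 0.20 with Aa and a further one by 0.93 ± 0.23 with Aa and 1.92 ± 0.30 with Ota, and the Aa call was lost on leaving out control 1 or 2 or high dose array 1 or 2 (adjusted p = 0.0572 to 0.202) and with all 36 arrays in 1 fit (0.196). The Ota call was lost in the mean of the WDR12 probe sets (0.0817).

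**Figure D4:**
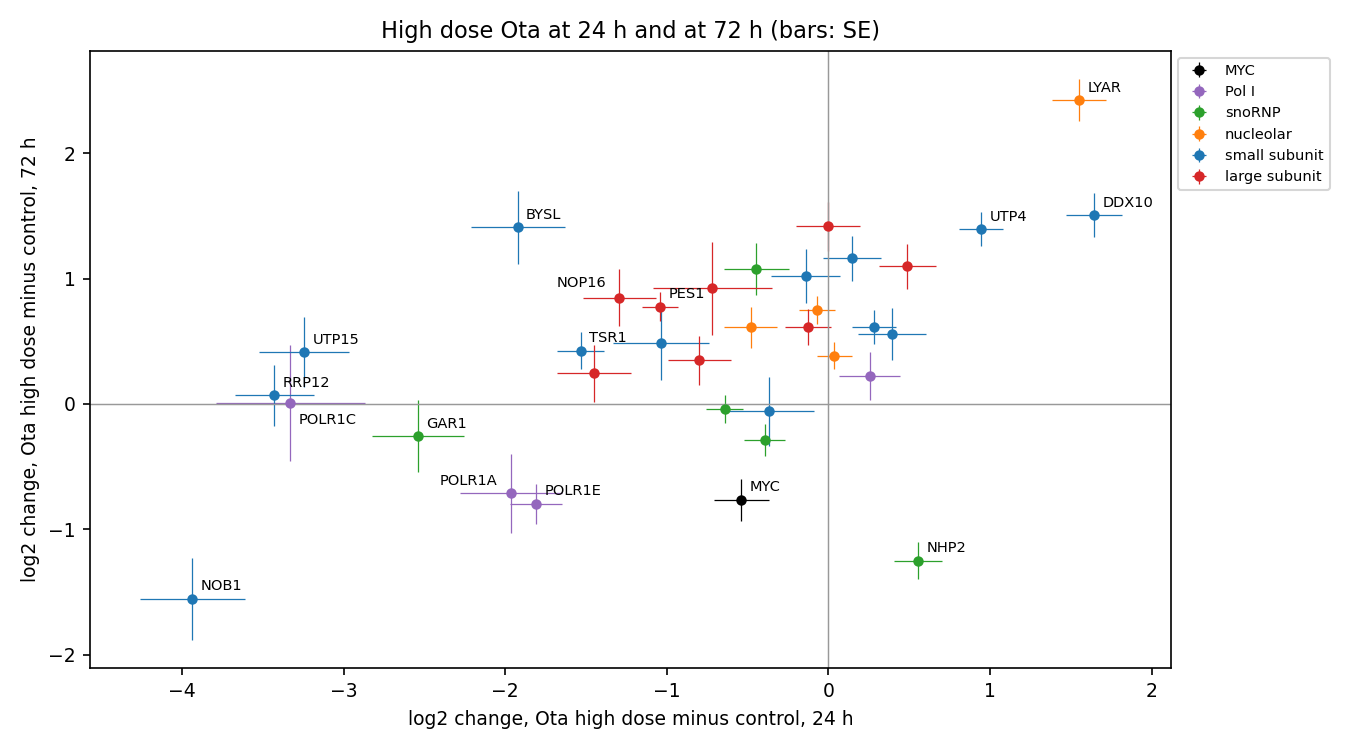
Log2 change with high dose Ota against control at 24 h (x axis) and at 72 h (y axis) for the 35 genes, coloured by role, with SE bars. BYSL, NOP16, PES1 and TSR1 lie at the upper left, lower at 24 h and higher at 72 h; LYAR, UTP4 and DDX10 are higher at both times, and NHP2 alone is higher at 24 h and lower at 72 h.

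The change of the Ota effect with time was tested as an interaction, and 25 of the 35 genes passed, 24 of them upward, when 53.8% of all tested genes did and 33.0% upward. The median of this difference was 1.09 over the 35 genes and 0.20 over all tested genes. UTP15 had an effect of -3.24 ± 0.28 at 24 h and 0.41 ± 0.28 at 72 h, a difference of 3.66 ± 0.40 (adjusted p = 2.9e-06). POLR1C differed by 3.34 ± 0.65 and BYSL by 3.33 ± 0.41, both having fallen at 24 h. For RRP12, whose high dose arrays at 24 h all lay at or under 4, the difference was at least 3.03 (adjusted p = 1.2e-06). The RRP12 arrays at 72 h, at 7.92, 6.97 and 8.19, overlapped the controls, at 7.61, 7.43 and 7.83. Among genes whose calls turned round, NOP16 differed by 2.14 ± 0.32, TSR1 by 1.96 ± 0.21, PES1 by 1.82 ± 0.16 and DDX21 by 1.09 ± 0.23. NHP2 was the only gene with a downward difference that passed (-1.80 ± 0.21, adjusted p = 5.8e-06). MYC did not pass (-0.23 ± 0.24).

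For the change of the Aa effect with time, 7 of the 35 genes passed, 6 upward and 1 downward. Of all tested genes 20.7% did, 7.14% upward and 13.6% downward. The share that passed in either direction was thus near that of all genes, while most of the 7 went upward. LYAR differed by 1.28 ± 0.30, POLR1C by 1.26 ± 0.27 and NOP16 by 0.95 ± 0.26 between 48 h and 24 h, NOP16 losing its call without control replicate 3 at 24 h, control replicate 1 at 48 h or high dose replicate 3 at 48 h (adjusted p = 0.0515 to 0.0551). The NOP16 call was also lost in the mean of its probe sets (0.0593), and that of POLR1C with all 36 arrays in 1 fit (0.0955). The count was 4 without control replicate 1 at 48 h or control replicate 3 at 24 h. With the replicate block, 19 genes passed, 17 upward and 2 downward, when 39.2% of all tested genes did (15.5% upward, 23.7% downward). MYC, at -0.47 ± 0.19, passed only with the block (adjusted p = 0.016).

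The compounds were compared at 24 h, the time they share, by the difference of their high dose effects, each against its own controls. In 23 of 35 genes this difference passed, 4 upward and 19 downward, when 59.4% of all tested genes did and 40.7% downward. With shifted arrays the split was 11 upward and 12 downward, a setting for which shares over all tested genes are not given. DDX10 differed most, at 5.32 ± 0.36 (adjusted p = 1.2e-12), having fallen with Aa and risen with Ota. NOB1 differed by -4.73 ± 0.36 (adjusted p = 1.0e-11), and RRP12, with its Ota arrays at or under 4, by -3.52 or further below 0. MYC did not pass (0.23 ± 0.22), but with shifted arrays it did, at 0.97 (adjusted p = 0.00024), so its result depended on scaling. NOLC1 (-1.09 ± 0.15) and NHP2 (0.89 ± 0.19) also had calls of opposite sign with the 2 compounds. Doses are not matched, so these differences are between the doses used.

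At the later times, 48 h for Aa and 72 h for Ota, the lists of genes called higher shared 16 members, 76.2% of the 21 with Aa and 84.2% of the 19 with Ota. Over all 10649 genes tested with both compounds, 1316 were called higher in both, 41.6% of those with Aa and 47.2% of those with Ota. The difference between these shares was not tested. They were BYSL, DDX21, GNL2, LTV1, LYAR, NCL, NOP14, NOP16, NOP2, NOP58, PES1, RRS1, TSR1, UTP4, WDR43 and WDR75. MYC and NHP2 were lower in both, and DDX10 and NPM1 were lower with Aa and higher with Ota. The 2 comparisons share no arrays, but their times and doses differ. Of the promoters available, those of 9 of 17 genes higher with Aa at 48 h, 8 of 16 higher with Ota at 72 h and 4 of 14 lower with Ota at 24 h held CACGTG. Over the whole set 11 of 31 did (35.5%). The counts are small, and the 2 lists of higher genes share most of their members. The share among all genes called in each comparison is not given, and no difference was tested.

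With low dose Ota no gene passed at either time by limma, when 14.7% of all tested genes did at 24 h, 4.66% upward and 10.0% downward, and 17.1% at 72 h, 9.79% upward and 7.28% downward. At an unadjusted p under 0.05, 4 were lower at 24 h and 2 higher at 72 h. The share of all tested genes at that threshold is not given here. MYC stood at -0.39 ± 0.17 at 24 h and 0.18 ± 0.17 at 72 h. With low dose Aa, 4 genes passed at 24 h, when 25.1% of all tested genes did: NOP14 rose by 0.41 ± 0.11, and DDX10, MYC and WDR12 fell, WDR12 by 0.53 ± 0.11 (another of its sets rose by 0.76 ± 0.20). The NOP14 call was lost without control replicate 1 or low dose replicate 1 or 3 (adjusted p = 0.0535 to 0.0743) and with all 36 arrays in 1 fit (0.0906), and without either of those low dose replicates 2 genes passed. With the replicate block 10 passed, when 39.4% of all tested genes did.

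At 48 h of low dose Aa, 9 genes passed, when 37.9% of all tested genes did. LYAR rose by 1.13 ± 0.21, NOP2 by 0.86 ± 0.14, NOP14 by 0.51 ± 0.11 and RRP1B by 0.51 ± 0.18. DDX10 fell by 1.31 ± 0.31, MYC by 1.00 ± 0.14, NHP2 by 0.45 ± 0.12, WDR12 by 0.38 ± 0.11 and POLR1E by 0.31 ± 0.11. RRP1B lost its call without low dose replicate 1 or 3 or control replicate 2 or 3 (adjusted p = 0.0652 to 0.128), WDR12 without low dose replicate 1 (0.0616), and POLR1E without any control array or low dose replicate 1 or 2 (0.0525 to 0.169). All 36 arrays in 1 fit ended the calls of WDR12 (0.111) and POLR1E (0.0829), shifted arrays (0.0823) and quantile normalization (0.0783) that of POLR1E, and the mean of its probe sets (0.0801) or no filter (0.0615) that of RRP1B. Other sets of POLR1E (1.69 ± 0.21) and WDR12 (0.83 ± 0.20) were called higher. With the replicate block 22 passed (16 higher, 6 lower), when 53.2% of all tested genes did (26.8% higher, 26.4% lower).

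High and low dose also differed directly. With Aa, 8 genes passed at 24 h (7 higher in the high dose), when 27.1% of all tested genes did (17.1% higher, 9.95% lower). The replicate block gave 17 (16 higher, 1 lower), when 41.5% did (25.3% higher, 16.2% lower). Without the block, the count at 24 h was 4 with shifted arrays and 5 without low dose replicate 1. NOP2 was 1.25 ± 0.14 higher and NOP58 0.83 ± 0.12 higher in the high dose, and DDX10 2.53 ± 0.31 lower. At 48 h, 19 passed (18 higher), when 46.5% did (20.9% higher, 25.6% lower). They were led by POLR1C (1.44 ± 0.19) and NOP2 (1.33 ± 0.14), and the lone gene lower was DDX10 (-2.13 ± 0.31). The block gave 26 at 48 h (21 higher, 5 lower), when 58.7% did (27.2% higher, 31.6% lower). With Ota, 22 passed at 24 h, 5 upward and 17 downward, when 58.1% did (19.4% higher, 38.7% lower), while 72 h gave 24, of them 19 upward and 5 downward, when 58.4% did (21.7% higher, 36.7% lower). With shifted arrays the 24 h split was 13 higher and 12 lower, again without shares over all tested genes. RRP12 at 24 h was at least 8.22-fold lower in the high dose, and NOB1 lower by 3.79 ± 0.33. MYC differed between doses at 72 h of Ota (-0.94 ± 0.17), and in the other 3 comparisons it lay between -0.15 and -0.24 without passing, except that it passed with Aa at 48 h when the replicate block was fitted (-0.24, adjusted p = 0.048).

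Vehicle cultures at the later time were set against those at 24 h. With Aa no gene passed by limma, when 1.29% of all tested genes did (0.565% higher, 0.729% lower). At the same time 6 had an unadjusted p under 0.05 (2 higher, 4 lower), a threshold for which the share of all tested genes is not given. With the replicate block 12 passed (2 higher, 10 lower), when 16.3% of all tested genes did (7.11% higher, 9.22% lower). MYC, at 0.31 ± 0.14 between 48 h and 24 h, passed only with the block (adjusted p = 0.046). With Ota 5 passed, when 29.8% did: NOB1 was 0.94 ± 0.33 higher and POLR1E 0.47 ± 0.16 higher at 72 h, and LYAR (-0.90 ± 0.17), TSR1 (-0.48 ± 0.15) and NHP2 (-0.46 ± 0.15) lower. Of these, LYAR kept its call whichever array was left out, and 1 to 3 genes passed in those fits. NOB1 lost its call without any one array (adjusted p = 0.0705 to 0.106), POLR1E without any but control replicate 1 at 72 h (0.0760 to 0.122), NHP2 without any but control replicate 3 at 72 h (0.0634 to 0.112), and TSR1 without control replicate 1 at 24 h or 2 at 72 h (0.103 and 0.101). The calls were also lost without the filter for NOB1 (0.0962), with shifted arrays for NHP2 (0.0660) and POLR1E (0.0728), and in the mean of all probe sets for POLR1E (0.146) and TSR1 (0.101). MYC did not pass (0.24 ± 0.17).

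Other genes of the pathway were listed apart from the 40. Over all tested genes, 27.4% were higher and 24.0% lower with high dose Aa at 24 h, 30.9% and 35.1% at 48 h, 21.6% and 42.4% with high dose Ota at 24 h, and 26.3% and 37.0% at 72 h. Of 70 further biogenesis factors, 23 were higher and 8 lower with Aa at 24 h, 45 and 7 at 48 h, 15 and 30 with Ota at 24 h, and 37 and 12 at 72 h, so that the share lower with Ota at 24 h was near that of all genes. UTP25, a processome factor, rose by 2.94 ± 0.27 and 3.14 ± 0.27 with Aa at 24 h and 48 h, and DDX52, a helicase of the small subunit, by 2.55 ± 0.18 at both times. EMG1, an rRNA methyltransferase of the small subunit, fell by 4.41 ± 0.30 with Ota at 24 h and by 3.34 ± 0.30 at 72 h. Of 11 further polymerase I subunits and factors, 6 were higher and 2 lower with Aa at 24 h, 8 and 2 at 48 h, 3 and 4 with Ota at 24 h, and 5 and 2 at 72 h. RNA polymerase III, which makes tRNA, was covered by 12 genes from a list of its subunits, initiation factors and a regulator. Of the 12, 5 were higher and 3 lower with Aa at 24 h and 4 and 3 at 48 h. With Ota none was higher and 7 were lower at 24 h, with a median change of -1.48, beside -0.26 over all tested genes, and 2 were higher and 3 lower at 72 h, with a median of -0.09. Of the partners and antagonists of MYC, 3 of 9 tested were higher and 2 lower with Aa at 24 h, 2 higher and 5 lower at 48 h. With Ota, 1 of 8 was higher and 5 lower at 24 h, and 2 higher and 4 lower at 72 h. MXD1, a MAX partner that opposes MYC, rose by 2.19 ± 0.22 with Aa at 24 h.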

How the data were processed

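Total RNA of HK-2 cells was hybridised to 36 single-colour arrays in 12 groups of 3. The deposited values are log2 intensities that the authors computed with GCRMA, per the submitters' processing notes. Neither a GCRMA version nor joint normalization of the arrays is stated there. Array number limits the precision. Probe sets annotated to 1 gene were kept (41091 of 54675), with 1 per gene, the highest mean over the 36 arrays. Genes above 4 on at least 3 arrays were tested: 10972 for Aa and 11029 for Ota. Group means were fitted with limma 3.58.1 in R 4.3.3 on the 18 arrays of a compound (all 36 for Ota against Aa), two-sided, with Benjamini-Hochberg adjustment over all tested genes; a call is an adjusted p under 0.05. Errors are SE for changes and SD for levels. The fit was tested on simulated data. In Aa, deviations of same-numbered arrays correlated above 0.1 in 45 of 45 pairs (lowest 0.19), so the number was also fitted as a block. In Ota this held in 24 of 45 same-numbered pairs and in 4 of 90 differently numbered ones, a partial pairing. Counts, SE and adjusted p of both compounds are from the fit without the block, which leaves this pairing out, unless another setting is named. The members and lists were chosen with earlier results of these data known. By the naming rule, any member that passed may be named in a comparison and MYC always, and members that did not pass only where they were the sole exception of their role or had an opposing probe set; at most 4 genes of other lists are named per comparison, among those called with the largest change. Alternatives were no filter, a common median, quantile normalization, values under 4 set to 4, the mean of all probe sets, the block, all arrays in 1 fit, and each array left out.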

Additional observations from a re-analysis of the deposited data

Results flagged for a closer look

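The effect of high dose Ota differed between 72 h and 24 h in 25 of the 35 genes by an interaction test. The difference was 3.66 for UTP15, 3.34 for POLR1C, 3.33 for BYSL, 2.14 for NOP16, 1.96 for TSR1, 1.82 for PES1, 1.09 for DDX21 and -1.80 for NHP2, on the log2 scale. The Aa effect differed between 48 h and 24 h in 7 genes, among them LYAR (1.28), POLR1C (1.26) and NOP16 (0.95). Between Ota and Aa at 24 h the high dose effects differed in 23 genes, with DDX10 at 5.32, NHP2 at 0.89, NOB1 at -4.73 and NOLC1 at -1.09. RRP12 came to 3.50 and -3.99 in these tests as deposited, but all its arrays of high dose Ota at 24 h lie at or under 4, so its differences are known only as bounds, 3.03 and -3.52. Groups of 3 were not tested for outlying arrays.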

How the results depend on the processing

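Of 241 gene results, 241 kept direction and call with values under 4 set to 4, 230 without the filter, 224 with quantile normalization, 217 with the mean of all probe sets, and 203 with arrays shifted to a common median; with all 36 arrays in 1 fit, 202 of 217 did. The mean of all probe sets reversed, with high dose Aa, POLR1A at 24 h (0.48) and 48 h (0.63) and WDR12 at 24 h (0.37); with low dose Aa, WDR12 at 24 h (0.11) and 48 h (0.22) and POLR1E at 48 h (0.52); and with high dose Ota, DDX21 at 24 h (0.017) and NPM1 at 72 h (-0.035). Shifted arrays reversed DDX21 (0.16), FBL (0.24) and MYC (0.10) with high dose Ota at 24 h, DDX21 (0.029), MYC (0.36) and NOLC1 (0.077) between Ota doses at 24 h, and DDX21 (0.036) and FBL (0.36) between Ota and Aa. Quantile normalization reversed RRP1 with Ota at 24 h against control (0.20) and low dose (0.026). The cause was not tested. With the replicate block the Aa counts became 24 (high dose, 24 h), 10 (low dose, 24 h), 17 (high against low dose, 24 h), 22 (low dose, 48 h), 19 (change of effect with time) and 12 (controls over time). They moved less at 48 h for the high dose, to 28, and between doses, to 26. The block ended no call in either compound. In Ota, where numbers paired the samples only in part, it moved no count by over 1.5 times. It added NOP58 at 24 h and FBL at 72 h with high dose Ota, and RRP1B in the change of the Ota effect with time. Between Aa doses at 24 h, shifted arrays gave 4 genes and all 36 arrays 5. Low dose Ota gave 1 gene at 24 h with quantile normalization, the mean of all probe sets or all 36 arrays, and 1 at 72 h with all 36 arrays; Ota controls over time gave 10 with quantile normalization. Leaving out single arrays gave 2 to 6 genes for low dose Aa at 24 h, 5 to 10 between Aa doses at 24 h, 4 to 9 for the change of the Aa effect with time, and 1 to 3 for Ota controls over time. Values at or under 4 have no dependable order.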
